A study of Homo sapiens with 6 samples.

Results

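The 9 genes described here carry out the MHC class I antigen presentation pathway, and they were taken by name from the 37887 rows of the gene count table. They are the heavy chain genes HLA-B, HLA-C and HLA-E, the light chain gene B2M, the peptide transporter genes TAP1 and TAP2, the loading factor gene TAPBP, and the immunoproteasome genes PSMB8 and PSMB9. All 9 were in the table and all 9 passed the filter on low counts. The cells were MDA-MB-436, a human triple-negative breast cancer line with mutant BRCA1 that is long established in culture. All cells carried a stably integrated, tetracycline-inducible short hairpin RNA against MUC1, and the groups differed in the agent added. The cells of the 3 control libraries received 0.1% DMSO as vehicle. Those of the 3 shMUC1 libraries received 500 ng/ml doxycycline (DOX), which switches the hairpin on. By their titles the vehicle libraries carry a control shRNA, but their treatment labels describe the same inducible cells without DOX, which is how they are treated here. No DOX-treated library with a control hairpin was analysed here. Silencing of MUC1, other effects of the hairpin, the action of DOX and the lack of DMSO therefore cannot be told apart. The labels do not give the time of treatment. Nothing in the labels ties replicates to independent cultures, so p-values measure only the spread between these libraries.

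Class I molecules display peptides from inside the cell to CD8 T cells. The proteasome cuts cytosolic proteins, TAP1 and TAP2 together move the peptides into the endoplasmic reticulum, and tapasin, the product of TAPBP, holds the empty heavy chain and B2M dimer next to the transporter until a good peptide binds. Interferon raises expression of most of these genes, and it also brings in PSMB8 and PSMB9, the catalytic subunits that take the places of the constitutive PSMB5 and PSMB6. NLRC5, with the RFX, CREB/ATF and NF-Y factors, is the class I transactivator, and tumors often show less class I RNA without loss of the genes.

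Library totals ranged from 18678307 to 27825546 counts, and MUC1 itself fell from 93, 84 and 102 counts in control to 72, 51 and 34 in shMUC1 (log2 fold change -0.84, SE 0.214, edgeR adjusted p = 0.00119). CPM below are counts scaled to the normalised library total. The summed level of 14 leukocyte markers ranged from 3.92 to 4.39 CPM in control and from 6.18 to 8.78 CPM in shMUC1. Of the 3 tested markers, 2 were higher, CD14 (mean 2.99 to 6.28 CPM) and PTPRC (2, 6 and 10 counts in control). ITGAM was not called (log2 fold change -1.02, edgeR adjusted p = 0.183). CD3E, CD2 and MS4A1 were at 0 counts in all libraries. Endothelial and fibroblast markers summed to between 8.07 and 9.83 CPM in control and between 4.04 and 5.39 CPM in shMUC1, where 3 of 4 tested markers (PECAM1, KDR and COL1A1) fell, and COL1A2, DCN and LUM were at 0 throughout. Of the luminal epithelial markers, EPCAM, GATA3 and FOXA1 rose and ERBB2 fell among 4 tested, and the summed level ranged from 57.1 to 60.2 CPM in control and from 64.9 to 70.4 CPM in shMUC1, with GRHL2 at 0. The mesenchymal markers expected of this line, VIM, ZEB1, AXL and CD44, were all detected and all fell, and their summed level was 2820 to 2910 CPM in control and 2180 to 2250 CPM in shMUC1. Leaving out 1 library ended the PTPRC call (control replicate 1 or shMUC1 replicate 2, log2 fold changes 1.23 and 1.4), the FOXA1 call (shMUC1 replicate 1 or 3, both 0.31) and the COL1A1 call (any library but control replicate 1, -0.68 to -0.31). All 3 calls were also lost with DESeq2 (adjusted p = 0.0529, 0.0581 and 0.125), and the COL1A1 call with limma-voom (-0.55), the replicate block (-0.54), the GC and length trend removed (-0.51) and all libraries thinned to equal depth (-0.46). The part of these marker differences in the class I values was not tested. In bulk RNA, fewer cells of a type and less RNA per cell cannot be told apart.

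Of the 9 class I pathway genes, 2 fell in shMUC1, HLA-B and TAPBP, both by about 30 percent, and 7 did not pass the test in either direction. No gene rose and none changed by more than 2-fold. Across all 15355 tested genes, 23.6% were lower, 25.2% were higher and 5.95% passed both the test and a fold change of 2, where the test is edgeR's quasi-likelihood test at a Benjamini-Hochberg adjusted p under 0.05. The count of 2 lower among 9 was close to the background share. For 2 of the 9 genes the 3 control and 3 shMUC1 CPM values occupied separate ranges, as they did for 54.8% of all tested genes. The median log2 fold change over the 9 genes was -0.11, beside 0.0006 over all tested genes.

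**Figure D1:**
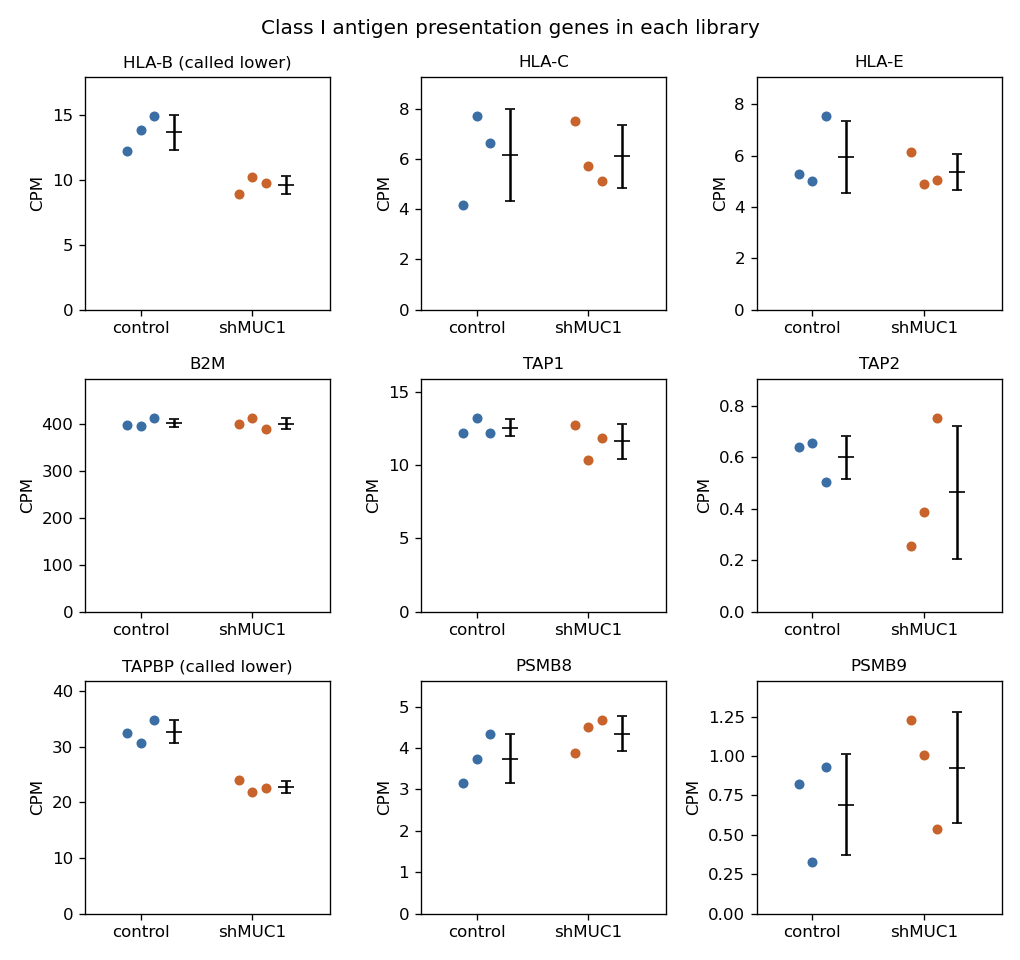
Level of each of the 9 class I pathway genes in each library, in CPM on linear axes from 0; blue points are the 3 control and orange points the 3 shMUC1 libraries, and the bars give the mean and SD of each group. HLA-B and TAPBP separate into non-overlapping groups, whereas B2M lies between 389 and 412 CPM in all 6 libraries.

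HLA-B (ENSG00000234745.10), annotated at chr6:31269491-31357188 on the minus strand in GENCODE release 29 (GRCh38), encodes a classical, highly polymorphic heavy chain. It was at 12.2, 13.8 and 14.9 CPM in the control libraries and at 8.87, 10.2 and 9.73 CPM in the shMUC1 libraries. All 3 shMUC1 values lay below all 3 control values. The mean went from 13.6 ± 1.35 (SD, n = 3) to 9.59 ± 0.664 CPM (SD, n = 3), a log2 fold change of -0.51 (SE 0.111, 95% interval -0.73 to -0.28, edgeR adjusted p = 0.000223).

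HLA-C (ENSG00000204525.16) encodes the second classical heavy chain in the list and lies next to HLA-B. Its libraries held 4.15, 7.72 and 6.66 CPM in control and 7.53, 5.71 and 5.11 CPM in shMUC1. The lowest value of all was a control library and the groups overlapped widely. The log2 fold change was -0.0084 (SE 0.172, 95% interval -0.36 to 0.34, edgeR adjusted p = 0.973), so a fold change anywhere between 0.78 and 1.27 was compatible with these libraries. The coefficient of variation (CV) within groups was 25.5% for HLA-C and 8.56% for HLA-B.

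HLA-E (ENSG00000204592.8) encodes a non-classical heavy chain that presents leader peptides of other class I chains to NKG2 receptors on natural killer cells. It was counted 116, 122 and 195 times in control and 170, 126 and 94 times in shMUC1. Control replicate 3 stood above the other 5 at 7.55 CPM, and the groups overlapped. The log2 fold change was -0.15 (SE 0.163, 95% interval -0.48 to 0.18, edgeR adjusted p = 0.481).

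B2M (ENSG00000166710.18), the invariant light chain shared by all class I heavy chains, is the 1 gene of the 9 outside chromosome 6, on chromosome 15. It was at 396, 395 and 411 CPM in control and 399, 412 and 389 CPM in shMUC1. These were the tightest values among the 9 genes, with a within-group CV of 2.55%. The fold change was 0.999 with a 95% interval from 0.955 to 1.04 (log2 fold change -0.0014, SE 0.0319, edgeR adjusted p = 0.975).

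Because the HLA genes are polymorphic and close in sequence, the reference allele may not match the alleles of the line, and the handling of reads that map to several genes was not given in the sources used here. HLA-B and HLA-C share 35 bases of annotated exon on the same strand. Their separate values are therefore uncertain. The sum of both per kb of exon, divided by B2M per kb, was 0.0866, 0.117 and 0.111 in control and 0.0899, 0.0828 and 0.0816 in shMUC1. The groups overlapped at the first control library, and the log2 difference was -0.30 (two-sided exact permutation p = 0.2, with 0.1 the smallest p that 3 against 3 libraries allow).

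TAPBP (ENSG00000231925.11), annotated at chr6:33299694-33314387 on the minus strand, had the lowest adjusted p of the 9 genes. Its level was 32.5, 30.7 and 34.8 CPM in control and 24.0, 21.9 and 22.5 CPM in shMUC1. The gap between the groups was wider than the spread inside either of them. The mean fell from 32.7 ± 2.08 (SD, n = 3) to 22.8 ± 1.1 CPM (SD, n = 3), with a log2 fold change of -0.52 (SE 0.0752, 95% interval -0.67 to -0.36, edgeR adjusted p = 3.65e-07).

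TAP1 (ENSG00000168394.11), which encodes one chain of the transporter that tapasin docks to, was at 12.2, 13.2 and 12.2 CPM in control and 12.7, 10.3 and 11.8 CPM in shMUC1. The groups overlapped, and the log2 fold change was -0.11 (SE 0.109, 95% interval -0.33 to 0.11, edgeR adjusted p = 0.431). TAP2 (ENSG00000204267.13) encodes the partner chain. It was counted only 14, 16 and 13 times in control and 7, 10 and 14 times in shMUC1. At this depth the 95% interval of its log2 fold change ran from -1.42 to 0.57 around -0.43 (SE 0.491, edgeR adjusted p = 0.501), so these counts could not settle a direction. On the annotation, 32.3% of TAP2 exon bases also belong to AL669918.1 on the same strand, which was not a row of the table. The ratio of TAP1 to TAP2 per kb was 28.1 ± 3.55 (SD, n = 3) in control and 41.0 ± 23.5 (SD, n = 3) in shMUC1, and the groups overlapped (two-sided exact permutation p = 0.6).

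PSMB8 (ENSG00000204264.9) encodes the immunoproteasome subunit that takes the place of PSMB5. It was counted 69, 91 and 112 times in control and 107, 116 and 87 times in shMUC1. In CPM its groups overlapped, and the log2 fold change was 0.21 (SE 0.18, 95% interval -0.16 to 0.57, edgeR adjusted p = 0.364). PSMB9 (ENSG00000240065.7), the counterpart of PSMB6, was counted 18, 8 and 24 times in control and 34, 26 and 10 times in shMUC1. Those few counts gave a within-group CV of 42.4% and a log2 fold change of 0.45 with a 95% interval from -0.41 to 1.31 (SE 0.424, edgeR adjusted p = 0.403). PSMB8 shares 20.6% of its exon bases with PSMB8-AS1 on the opposite strand, and the strand setting used in counting was not given in the sources used here.

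Per kb of annotated exon, the pathway genes were expressed over a wide range in the control libraries. B2M was far above the rest at 65.9 ± 1.48 CPM per kb (SD, n = 3). TAPBP came next at 6.46 ± 0.41 and then HLA-B at 4.46 ± 0.443 CPM per kb. TAP1 at 2.61 ± 0.119, HLA-C at 2.46 ± 0.731 and HLA-E at 2.0 ± 0.468 CPM per kb followed, and the spread of HLA-C covered both neighbours, so these 3 had no settled order. PSMB8 followed at 1.25 ± 0.198 CPM per kb, then PSMB9 at 0.226 ± 0.104 and TAP2 at 0.0938 ± 0.0131. In shMUC1 the order by mean was TAPBP at 4.51 ± 0.217, HLA-B at 3.14 ± 0.218, HLA-C at 2.44 ± 0.503 and TAP1 at 2.42 ± 0.262 CPM per kb, below B2M at 65.8 ± 1.86. Length here is the union of annotated exons, which can be longer than the transcripts the cells make. Of the HLA-B exon bases, 17.8% are shared with AL671883.2 on the opposite strand. The HLA levels also depend on allele match and on the handling of reads that map to several genes, so their rank is uncertain.

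The windows around the transcription starts were searched for short sequence words, in the genes that fell and in those that did not. RefSeq (GRCh38.p14) holds 10 such windows for 8 of the 9 genes, each with 250 bases before and 50 after a start. The first 2 below belong to the genes that fell, and HLA-C and B2M are shown as the closest relative of HLA-B and as its partner chain, neither of which passed the test. Capitals mark the interferon regulatory factor core AANNGAAA and the NF-kB-like word GGGNNTTNCC, both searched on both strands, so that TTTCNNTT and GGNAANNCCC are their reverse forms.
HLA-B (chr6:31357130-31357429, minus strand): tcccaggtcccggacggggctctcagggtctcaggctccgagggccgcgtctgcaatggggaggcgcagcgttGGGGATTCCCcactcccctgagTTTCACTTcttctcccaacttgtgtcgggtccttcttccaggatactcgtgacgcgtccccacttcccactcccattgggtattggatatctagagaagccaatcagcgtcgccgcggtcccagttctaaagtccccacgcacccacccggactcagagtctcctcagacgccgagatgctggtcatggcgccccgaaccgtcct
TAPBP (chr6:33314029-33314328, minus strand): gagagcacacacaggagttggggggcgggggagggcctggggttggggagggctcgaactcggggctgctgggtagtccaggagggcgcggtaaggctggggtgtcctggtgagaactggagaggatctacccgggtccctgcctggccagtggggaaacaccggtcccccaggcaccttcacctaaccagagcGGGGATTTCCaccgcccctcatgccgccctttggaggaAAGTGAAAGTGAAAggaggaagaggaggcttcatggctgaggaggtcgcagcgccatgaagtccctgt
HLA-C (chr6:31272043-31272342, minus strand): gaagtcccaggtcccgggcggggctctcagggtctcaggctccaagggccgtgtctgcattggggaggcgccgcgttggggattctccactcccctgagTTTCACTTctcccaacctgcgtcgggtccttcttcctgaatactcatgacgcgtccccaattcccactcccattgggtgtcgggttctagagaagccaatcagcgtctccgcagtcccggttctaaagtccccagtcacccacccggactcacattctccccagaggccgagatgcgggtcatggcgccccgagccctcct
B2M (chr15:44711267-44711566, plus strand): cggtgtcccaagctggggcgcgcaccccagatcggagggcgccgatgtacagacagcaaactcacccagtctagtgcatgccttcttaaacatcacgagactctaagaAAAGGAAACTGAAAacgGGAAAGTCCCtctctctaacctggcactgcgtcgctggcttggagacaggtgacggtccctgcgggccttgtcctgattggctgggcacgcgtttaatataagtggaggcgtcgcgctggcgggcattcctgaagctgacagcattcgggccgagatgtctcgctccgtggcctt
The HLA-B and HLA-C windows were identical at 269 of 296 aligned bases (90.9%, with 8 gap bases). Both carry 1 core in the same sequence surroundings, at -155 in HLA-B and -151 in HLA-C counted from the start. The NF-kB-like word begins at -177 in HLA-B, and HLA-C has no match to it. TAPBP has 2 overlapping cores at -18 and -12 and the NF-kB-like word at -56, and B2M has 2 overlapping cores at -142 and -136 followed by the reverse NF-kB-like word at -125. The core is found in 22.8% and the NF-kB-like word in 5.68% of 35116 RefSeq windows of this length. TAP1 also holds both, and TAP2 and the second PSMB8 window hold the core. Other words searched were TTCNNNGAA, present in 7.66% of windows and here in the second windows of TAP1 and PSMB8, and CCAAT, present in 34.6% and here in HLA-B, HLA-C, B2M, TAP1 and PSMB9. Both genes that fell held the core and the NF-kB-like word, as did B2M and TAP1, which did not pass the test. HLA-C, TAP2 and the second PSMB8 window held the core alone, PSMB9 held neither, and HLA-E had no window. A part of these words in the results was not tested. The words were chosen with these sequences in view, a match is not a bound site, and binding was not measured.

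The genes that control class I transcription did not move one way. Of 14 tested, 5 rose and 3 fell, with a median log2 fold change of -0.05. Over all tested genes 25.2% rose and 23.6% fell, which is the background for this list and those below. NLRC5, the class I transactivator, was counted 322, 335 and 399 times in control and 363, 334 and 289 times in shMUC1 (log2 fold change -0.08, SE 0.102, edgeR adjusted p = 0.527). Its partners in the RFX complex differed: RFX5 fell by 0.62 on the log2 scale (SE 0.0696, edgeR adjusted p = 1.62e-09), whereas RFXAP rose from 6.28 ± 0.354 to 12.5 ± 1.47 CPM (SD, n = 3 each, log2 fold change 1.0, SE 0.124, edgeR adjusted p = 1.59e-08). Among the NF-Y subunits NFYC rose by a log2 fold change of 0.36, NFYB fell by 0.24 (edgeR adjusted p = 0.0427), and NFYA did not pass the test (log2 fold change -0.06). IRF1, an interferon-induced factor that binds class I promoters, was counted 162, 156 and 180 times in control and 170, 156 and 127 times in shMUC1 (log2 fold change -0.13, SE 0.138, 95% interval -0.41 to 0.15, edgeR adjusted p = 0.465).

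Upstream of these factors, 3 of 13 tested interferon receptor and signalling genes rose and 2 fell, with a median log2 fold change of -0.04. IFNGR1, the ligand-binding chain of the interferon-gamma receptor, fell from 40.9 ± 0.176 to 25.0 ± 1.6 CPM (SD, n = 3 each, log2 fold change -0.71, SE 0.0688, edgeR adjusted p = 5.26e-11). SOCS3, a feedback inhibitor of JAK signalling, rose from 11.2 ± 1.02 to 26.3 ± 0.983 CPM (SD, n = 3 each, log2 fold change 1.23, SE 0.0917, edgeR adjusted p = 5.06e-14). PTPN2, a phosphatase that acts on JAK kinases, rose by a log2 fold change of 0.36 (edgeR adjusted p = 7.71e-07). The remaining calls of this list were 2 of the kinases themselves. JAK1 rose by 0.32 (edgeR adjusted p = 7.51e-11) and JAK2 fell by 0.22 on the log2 scale (edgeR adjusted p = 0.0132).

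Among 15 tested genes of peptide trimming and loading, 9 fell and 2 rose, with a median log2 fold change of -0.14. The chaperones that fold heavy chains changed little in size: CALR fell by 0.23, CANX by 0.1 and PDIA3 by 0.08 on the log2 scale. The PDIA3 call was lost without control replicate 1, shMUC1 replicate 1 or shMUC1 replicate 2 (log2 fold changes -0.078, -0.068 and -0.07), and without the filter on low counts (-0.072). BLMH, a cytosolic peptidase, fell by 0.38, and UGGT1, which tests the folding of glycoproteins, fell by 0.22. TAPBPL, the tapasin relative that edits peptides away from the transporter, was counted 23, 28 and 25 times in control and 24, 19 and 14 times in shMUC1 and did not pass the test (log2 fold change -0.42, SE 0.372, edgeR adjusted p = 0.376).

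The 3 trimming aminopeptidases that neighbour each other on chromosome 5 gave 3 different results. ERAP1 was at 23.7 ± 1.93 CPM in control and 25.0 ± 2.08 CPM in shMUC1 (SD, n = 3 each, edgeR adjusted p = 0.417). ERAP2 was counted 49, 69 and 63 times in control and 29, 58 and 15 times in shMUC1 and fell by 0.84 on the log2 scale (SE 0.297, edgeR adjusted p = 0.0179). In CPM its groups overlapped, and the call was lost without control replicate 2 (log2 fold change -0.74), shMUC1 replicate 1 (-0.65) or shMUC1 replicate 3 (-0.60), and with DESeq2 (-0.85). LNPEP, which trims peptides in endosomes, rose from 209 ± 4 to 273 ± 5.79 CPM (SD, n = 3 each, log2 fold change 0.38, edgeR adjusted p = 5.5e-12).

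**Figure D2:**
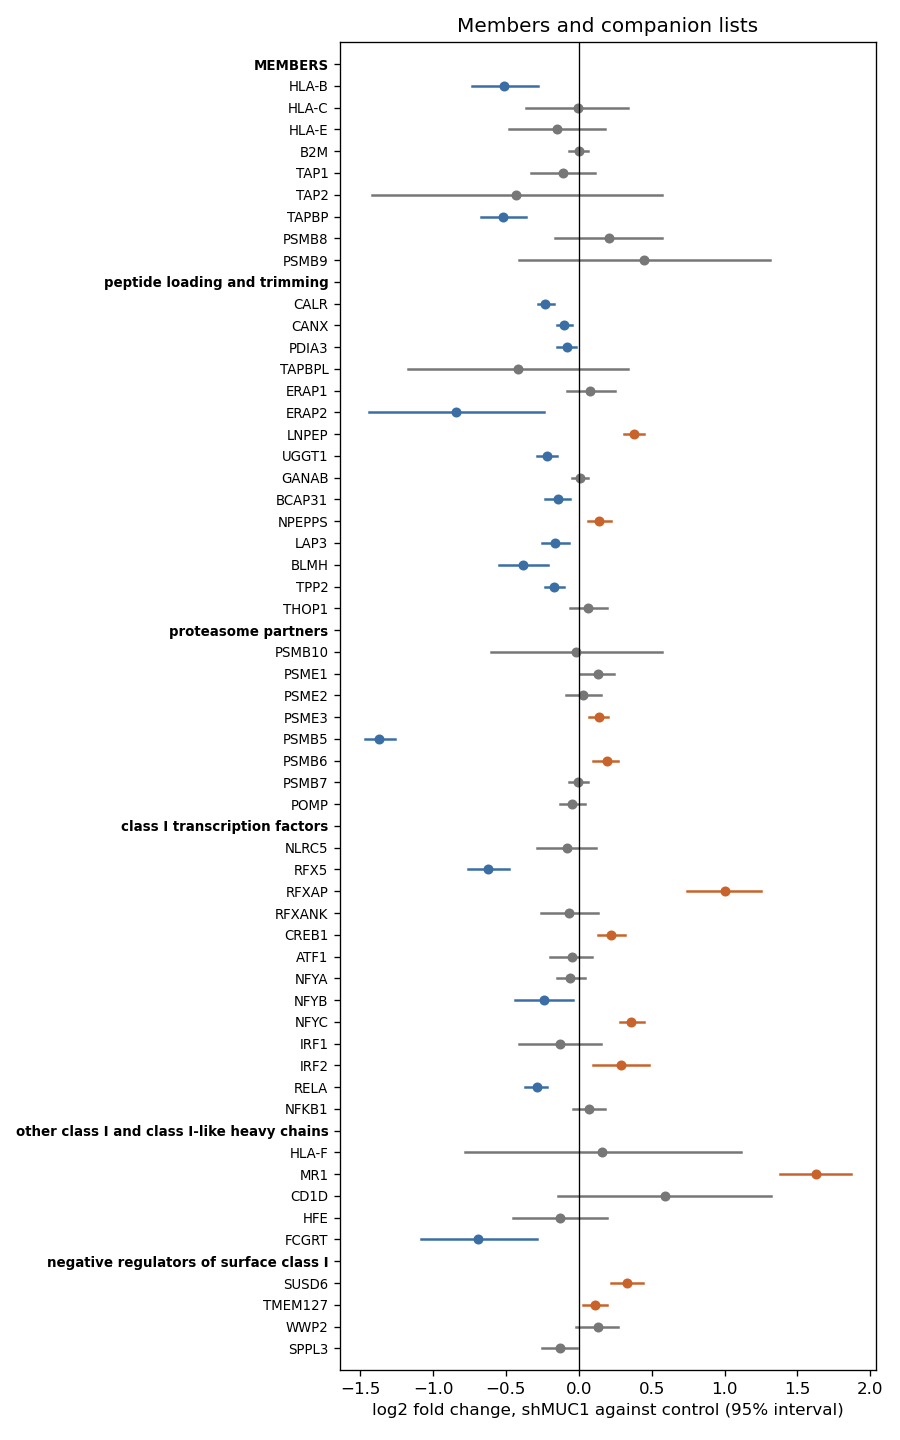
Log2 fold change of shMUC1 against control (x axis) with its 95% interval (horizontal line) for the 9 class I pathway genes and for tested genes from 5 companion lists; orange marks genes called higher, blue genes called lower and gray genes not called. HLA-B and TAPBP lie left of 0 near -0.5, PSMB5 reaches -1.37, MR1 reaches 1.63, and the interval of TAP2 runs from -1.42 to 0.57.

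Of the standard proteasome subunits, PSMB5 fell by more than 2-fold. This chymotrypsin-like subunit went from 2127, 2244 and 2320 counts in control to 991, 915 and 686 counts in shMUC1. Its level went from 93.0 ± 3.67 to 36.1 ± 0.7 CPM (SD, n = 3 each, log2 fold change -1.37, SE 0.0523, edgeR adjusted p = 2.17e-22). PSMB6 rose by a log2 fold change of 0.19 (edgeR adjusted p = 0.000322) and PSMB7 had a log2 fold change of -0.0042 (95% interval -0.07 to 0.06, edgeR adjusted p = 0.932). Of all 8 tested partners 2 rose, PSMB6 and the nuclear activator subunit PSME3 (log2 fold change 0.14), and 1 fell, with a median log2 fold change of 0.01. PSMB10, the remaining immunoproteasome subunit, was counted 31 to 45 times per library (log2 fold change -0.02, 95% interval -0.6 to 0.57, edgeR adjusted p = 0.968). The interferon-induced activator subunits PSME1 and PSME2 had log2 fold changes of 0.13 (edgeR adjusted p = 0.0602) and 0.03 (edgeR adjusted p = 0.744). PSME1 passed the test without control replicate 3 or shMUC1 replicate 1 (log2 fold change 0.16 in each), with the replicate block (0.13, edgeR adjusted p = 0.0364) and without the filter on low counts (0.14, edgeR adjusted p = 0.0492).

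The ratio of each immunoproteasome subunit to the constitutive one whose place it takes was computed per kb of exon in each library. PSMB8 to PSMB5 was 0.0191, 0.0239 and 0.0284 in control and 0.0636, 0.0747 and 0.0747 in shMUC1. The groups did not overlap, the mean going from 0.0238 ± 0.00466 to 0.071 ± 0.0064 (SD, n = 3 each), a log2 difference of 1.59. The two-sided exact permutation p was 0.1, the smallest that 3 against 3 libraries allow, and 0.5 after Benjamini-Hochberg adjustment over the 5 ratios computed. As the single genes show, the change in counts lay in PSMB5, while PSMB8 did not pass the test. PSMB9 to PSMB6 was 0.00369 ± 0.00171 in control and 0.00432 ± 0.0016 in shMUC1 (SD, n = 3 each, two-sided exact permutation p = 0.6, adjusted p = 0.75). PSMB10 to PSMB7 was 0.00512 ± 0.000492 and 0.0051 ± 0.000633 (SD, n = 3 each, two-sided exact permutation p = 1, adjusted p = 1).

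**Figure D3:**
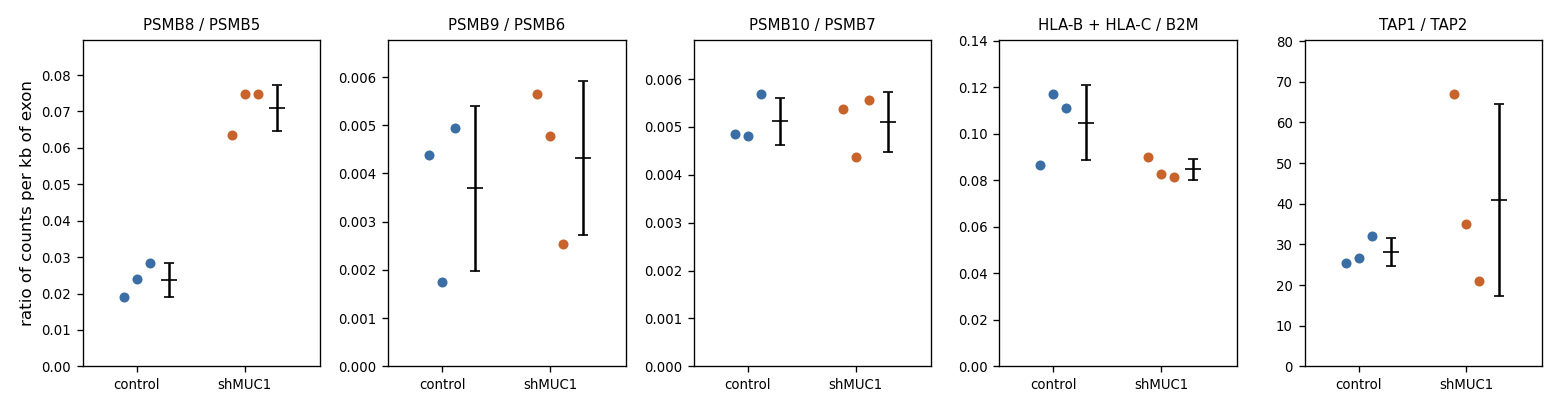
Ratios of counts per kb of exon in each library (y axes, no unit, from 0), with control in blue, shMUC1 in orange, and the mean and SD beside the points. Only PSMB8 to PSMB5 separates the groups, 0.0191 to 0.0284 in control against 0.0636 to 0.0747 in shMUC1, while the other 4 ratios overlap.

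The word ATCAGTA was looked for in annotated 3′ UTRs because earlier results of these same data had tied it to lower RNA in shMUC1, so its shares below are a description and no independent support. It was found in none of the 9 pathway genes and in 4 PSMB5 transcripts. It is printed here in capitals with 8 bases on either side, from the minus strand.
PSMB5 (chr14:23025975-23025981, word only): tcaattgtATCAGTActtttttt
Of 1661 tested genes with the word, 43.2% were lower in shMUC1, and of 11362 without it, 22.4%. A gene was scored as holding the word if any annotated transcript held it, and the shares were not matched for 3′ UTR length. Of the tested companion and marker genes, 11 hold the word. Of these, 6 fell (PSMB5, KDR, ZEB1, UGGT1, TPP2 and CD44), 2 rose (LNPEP and CREB1) and 3 were not called. CD3E, PDGFRA, ESR1 and PGR also hold it but did not pass the filter on low counts. Its part in the PSMB5 result was not tested.

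Among relatives of the heavy chains, MR1 rose and FCGRT fell. HLA-F was counted 3, 21 and 30 times in control and 20, 29 and 11 times in shMUC1 (log2 fold change 0.16, SE 0.465, edgeR adjusted p = 0.8), and HLA-G was at 0 in all libraries, where 3 counts would be 0.161 CPM in the shallowest. MR1, which presents microbial vitamin metabolites to mucosal-associated T cells and pairs with B2M, rose from 6.09 ± 1.22 to 18.8 ± 1.32 CPM (SD, n = 3 each, log2 fold change 1.63, SE 0.121, edgeR adjusted p = 5.54e-14). FCGRT, the heavy chain of the neonatal Fc receptor and another B2M partner, fell by 0.69 on the log2 scale (SE 0.195, edgeR adjusted p = 0.00347). They were the only calls among 5 tested genes of that list, whose median log2 fold change was 0.16. Of 6 genes listed for an effect on class I at the surface, 4 were matched by symbol and tested. SUSD6 (log2 fold change 0.33, edgeR adjusted p = 3.56e-06) and TMEM127 (log2 fold change 0.11, edgeR adjusted p = 0.0218) rose. The TMEM127 call was lost without control replicate 2 or 3 (log2 fold changes 0.077 and 0.079), and also without shMUC1 replicate 1 or 2 (0.11 and 0.10), with library totals only (0.086) and at a mean of at least 50 counts (0.085).

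The class II pathway, which presents peptides from endosomes and is normally kept to antigen-presenting cells, was low or not detectable at this depth. Of 13 genes, 7 were at 0 in all libraries and 3 passed the filter, none of which was called. CIITA, the class II transactivator, was counted 11 to 26 times per library (log2 fold change -0.46, SE 0.461, edgeR adjusted p = 0.434), and CD74, the invariant chain, 3 to 12 times. Ligands of NKG2D, a receptor that lets natural killer cells recognise stressed cells, are relatives of class I heavy chains that bind no B2M. Of 8 tested, 3 fell and 1 rose. ULBP2 fell from 29.3 ± 1.16 to 10.1 ± 1.51 CPM (SD, n = 3 each, log2 fold change -1.52, SE 0.0954, edgeR adjusted p = 4.13e-16), RAET1E fell by 1.72 and RAET1L rose by 1.25 on the log2 scale. RAET1E was counted 6, 24 and 6 times in shMUC1, and without shMUC1 replicate 2 its log2 fold change was -2.63. These genes are close copies of one another, so the division of reads among them is uncertain.

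Of the 9 pathway genes, 8 lie on chromosome 6, and GENCODE release 29 places 237 genes from the start of HLA-E to the end of TAPBP (chr6:30489467-33314387, GRCh38). Of these, 60 were tested. Among the 52 that are not pathway genes, 11 rose (21.2%) and 8 fell (15.4%), with a median log2 fold change of 0.10. Over all tested genes, 25.2% rose and 23.6% fell. The 3 largest changes were C4B (log2 fold change 1.32, edgeR adjusted p = 0.000131), RNF5 (-1.21, edgeR adjusted p = 3.08e-05) and PRR3 (1.05, edgeR adjusted p = 0.0109). C4B has a near-identical copy, and the PRR3 call was lost without control replicate 2 (log2 fold change 0.77) or shMUC1 replicate 1 (0.81). HLA-B and TAPBP thus lay among genes that moved both ways, as all tested genes did.

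Spread within groups was also described for this region, without a test. At a mean of at least 50 counts, the median within-group CV was 8.94% for the genes of the interval and 5.70% for all tested genes. MICB, an NKG2D ligand in the interval, was counted 10, 122 and 30 times in control and 27, 19 and 152 times in shMUC1. It was 1 of 9 genes of 12212 at that depth with a within-group CV over 50%. No class I pathway gene reached that CV, the highest being 42.4% for PSMB9 and 40.5% for TAP2, both with few counts.

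**Figure D4:**
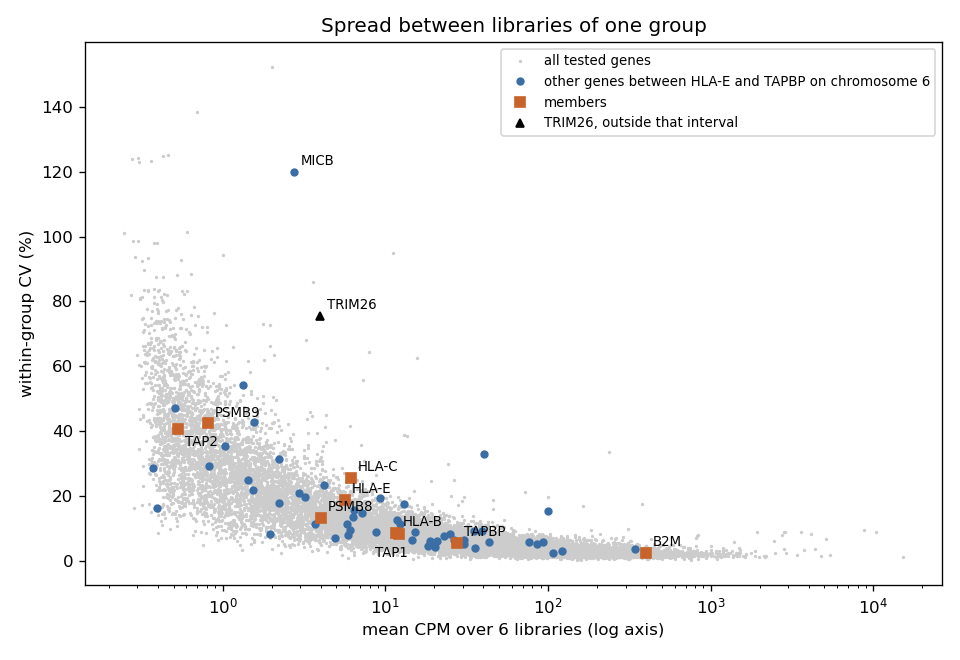
Within-group coefficient of variation (CV, y axis, in percent) against the mean CPM over 6 libraries (x axis, log scale) for all tested genes (gray), the other genes between HLA-E and TAPBP (blue circles) and the class I pathway genes (orange squares), with TRIM26 as a black triangle. The pathway genes lie between a CV of 42.4% for PSMB9 and 2.55% for B2M, HLA-C is at 25.5% and PSMB8, at a lower level, is at 13.2%, and MICB at 120% and TRIM26 at 75.6% stand far above genes of a like level.

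The genes most like each pathway gene across the 6 libraries were looked for among 11061 candidates with a mean of at least 100 counts. TLN2 followed TAPBP and SNHG7 followed HLA-B, both with a Pearson r of 0.999 on log2 CPM. PREB followed PSMB9 (r = 0.994), KIAA0930 PSMB8 (r = 0.989) and IGFBP3 B2M (r = 0.984). PLXNB2 followed HLA-C (r = 0.978), UBE2QL1 TAP2 (r = 0.977), FAM189B HLA-E (r = 0.975) and FABP5 TAP1 (r = 0.969). Each r is the highest of all candidates over the same 6 libraries, which share depth and group, and is a description without a test.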

How the data were processed

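The 6 libraries were stranded poly(A) libraries per the labels. The values deposited by the authors are unnormalised read counts for each gene symbol, with 1 column per library. Per the submitters' processing notes, CASAVA 1.8.2, STAR 2.7.9a, featureCounts, DESeq2 1.24.0 and GRCh38.p7 were used. The strand setting, the annotation release and the treatment of multi-mapping reads are not given in the sources used here. Of counts from 1 to 20, 68.8% to 70.5% per library were even, as when both reads of a pair are counted, and halved counts were tried as an alternative.

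Counts were tested with edgeR 4.0.16 (quasi-likelihood F test, TMM factors, filterByExpr defaults, group as the only term) on the whole table of 37887 rows, and p-values were adjusted by Benjamini-Hochberg over 15355 tested genes. CPM used TMM-scaled totals. Intervals are at 95%. Ratios used counts per kb of GENCODE release 29 exons and the two-sided exact permutation test. The script was tested on simulated data. Alternatives were DESeq2 1.42.0 and limma 3.58.1 (voom), other scalings and filters, a replicate block, leaving out each library, and a robust dispersion, which was added after seeing the data. Libraries of a group were not identical (chi-square per degree of freedom 2.79 to 5.55), so none was counted as a copy of another. Counting both reads of a pair also raises this value, and it does not show whether cultures were separate.

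The pathway genes, companion lists and sequence words were chosen with earlier results of these data known. Named genes are the 9 pathway genes, a fixed set of partners, up to 3 further called genes with the largest changes per list, the 3 largest called in the chromosome 6 interval, and the most alike gene for each pathway gene. JAK1, JAK2 and a few others are named to complete a list. The 2 listed genes MARCH4 and MARCH9 were not matched by symbol, and 14 rows carry dates in place of names. Some genes are not reported here one by one, though counts over lists and over all genes include them.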

Additional observations from a re-analysis of the deposited data

How the results depend on the processing

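HLA-B (log2 fold change -0.58 to -0.45) and TAPBP (-0.56 to -0.48) kept direction and call under all 17 alternatives, and the counts of 0 higher, 2 lower and 0 past 2-fold held in each, with the median between -0.216 and 0.006. Among 58 genes, 902 of 969 alternative values kept direction and side of the threshold, 39 lost the call and 4 gained it. TAP2 had no value with halved counts, libraries drawn down or a mean of at least 50 counts, nor PSMB9 at that mean.

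Some genes that were not called changed sign, and the cause was not tested. HLA-C went to 0.0023 without the filter, 0.025 with limma-voom and 0.0021 with the replicate block. Without the filter B2M went to 0.0086 and PSMB7 to 0.0057. PSMB10 went to 0.084 in libraries drawn down, and PSME2 to -0.0068 with the GC and length trend removed. Leaving out 1 library gave -0.22 to 0.18 for HLA-C, -0.26 to 0.054 for HLA-E, -0.02 to 0.022 for B2M, -0.055 to 0.063 for PSMB10, -0.037 to 0.017 for PSMB7, -0.0033 to 0.075 for PSME2 and -0.29 to 0.67 for HLA-F. Among the ratios it gave log2 differences of -0.19 to 0.63 for PSMB9 to PSMB6, -0.07 to 0.1 for PSMB10 to PSMB7 (0.02 with halved counts) and -0.04 to 0.79 for TAP1 to TAP2.

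Over all tested genes, same-numbered libraries did not deviate together (r = 0.0167, -0.0311 and -0.0359). Counting noise of single genes lowers such an r, so these values do not settle whether the numbers pair cultures. With the replicate block HLA-B was at -0.50 and TAPBP at -0.52, both still called. Depth limited TAP2, PSMB9 and PSMB10, with 7 to 45 counts per library.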

Other observations

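TRIM26, a ubiquitin ligase gene before HLA-E on chromosome 6 that was picked after its values were seen, was counted 138, 8 and 114 times in control and 146, 26 and 120 times in shMUC1, with a CV of 75.6%. The libraries low in TRIM26 were replicate 2 of each group, whereas MICB was highest in control replicate 2 and shMUC1 replicate 3. TRIM26 and MICB were the 2 genes on chromosome 6 among the 9 with a CV over 50% at a mean of at least 50 counts. Among the others, MT-RNR2 was counted 68 to 749 times and MT-RNR1 24 to 230 times. The cause was not tested.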
